A study of Pseudozyma hubeiensis with 12 samples.

Results

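The genes described here are zwf1, gnd2, tkl1 and nqm1 of the yeast Pseudozyma hubeiensis, a basidiomycete, in its strain BOT-O, and encode core enzymes of the pentose phosphate pathway. They were taken by gene name from a deposited table of 6689 loci, in which each of the 4 names stands for 1 locus and has no numbered copy. The names are those of the closest database proteins. The study had 12 RNA libraries in 4 groups, each with 3 replicates lettered A, B and C and labelled biological, all of the same strain and all quenched with liquid nitrogen. Exponential glucose and exponential xylose are cultures in exponential growth on the named sugar (time point 1), and starved glucose and starved xylose are cultures in nitrogen starvation (time point 2). The medium was yeast nitrogen base with ammonium sulfate set to 80 g/g carbon over nitrogen. The growth protocol text names glucose as the sugar for every library, the xylose libraries included, so the sugar was taken from the other labels. Every exponential library is from time point 1 and every starved library from time point 2, so nitrogen starvation and culture age cannot be told apart.

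The pentose phosphate pathway branches from glycolysis at glucose 6-phosphate. Its oxidative branch makes NADPH, which yeasts spend on fatty acid synthesis and on defence against oxidants, and ends in ribulose 5-phosphate. Its non-oxidative branch rearranges sugar phosphates reversibly. Xylose is reduced to xylitol, oxidised to xylulose and phosphorylated to xylulose 5-phosphate, which is a substrate of transketolase, so carbon from xylose enters central metabolism through the non-oxidative branch. Of the 4 genes, zwf1 encodes glucose-6-phosphate dehydrogenase, the entry step, and gnd2 encodes the decarboxylating 6-phosphogluconate dehydrogenase, and both enzymes reduce NADP to NADPH. The gene tkl1 encodes a transketolase, which moves fragments between sugar phosphates with thiamine diphosphate as cofactor. The gene nqm1 encodes a transaldolase. In Saccharomyces cerevisiae Nqm1 is the paralog of the main transaldolase Tal1, and Gnd2 is a paralog of the main enzyme Gnd1. In the table, zwf1 and gnd2 were the sole loci annotated with their activities, while 1 further transketolase and 2 further transaldolases were annotated.

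Total counts per library ran from 15130232 to 32374467. Levels below are CPM: each count was put on a scale of 1e+06 per library, with library sizes adjusted by the trimmed mean of M values (TMM). CPM is relative to the other transcripts, so fewer copies per cell and more of other RNA cannot be told apart. Transcript lengths were not used, so levels of transcripts are compared for 1 gene across groups and not between genes. The 4 genes had between 10507 and 120878 counts in each library, passed the filter on low counts and were tested with the other loci. Changes are log2 fold changes ± SE from edgeR's quasi-likelihood test over all 12 libraries. A change was called at a Benjamini-Hochberg adjusted p under 0.05 over the 5805 loci tested. The labels name biological replicates but not separate cultures, so the p values measure the spread between these libraries.

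The entry enzyme gene zwf1 (PHBOTO_004394) was low in exponential glucose alone. Its level in replicates A, B and C was 543, 539 and 512 CPM in exponential glucose. It was 897, 863 and 860 CPM in exponential xylose. The starved glucose libraries held 953, 914 and 805 CPM, and the starved xylose libraries 809, 792 and 807 CPM. All 9 libraries of the other 3 groups lay above the 3 exponential glucose libraries. Starved glucose spanned the range of exponential xylose and overlapped starved xylose through its replicate C alone, while starved and exponential xylose did not overlap each other. The mean rose from 531 ± 17.0 to 891 ± 76.6 CPM in starvation on glucose (SD, n = 3 each), a change of 0.75 ± 0.08 or 1.68-fold (edgeR adjusted p = 3.29e-07). In exponential growth zwf1 was 0.72 ± 0.08 higher on xylose than on glucose, or 1.64-fold (edgeR adjusted p = 8.39e-06). Starvation on xylose changed zwf1 by -0.12 ± 0.08, which was not called (edgeR adjusted p = 0.180), with an approximate 95% interval of -0.31 to 0.07. With libraries scaled by their totals alone, that value was -0.34 and was called, beside a median of -0.21 over all loci.

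The second NADPH-forming gene, gnd2 (PHBOTO_002684), shared the xylose response of zwf1 in growth but moved down in starvation. Replicates A, B and C held 1477, 1426 and 1395 CPM of gnd2 in exponential glucose. They held 2242, 2499 and 2206 CPM in exponential xylose. In starvation the levels were 1185, 1245 and 1142 CPM on glucose and 954, 1083 and 1042 CPM on xylose. No group overlapped another, and the order from low to high was starved xylose, starved glucose, exponential glucose and exponential xylose. On xylose gnd2 fell from 2316 ± 159 to 1026 ± 65.9 CPM (SD, n = 3 each), a change of -1.17 ± 0.09 or 2.26-fold (edgeR adjusted p = 2.42e-09). On glucose the change was smaller, -0.27 ± 0.09 or 1.20-fold (edgeR adjusted p = 0.00917). In exponential growth gnd2 was 0.69 ± 0.09 higher on xylose than on glucose (edgeR adjusted p = 1.89e-05). The starved groups differed by -0.21 ± 0.09, xylose minus glucose, which was not called (edgeR adjusted p = 0.0544). That difference was called with DESeq2 size factors (-0.24, edgeR adjusted p = 0.0320), without starved glucose C (-0.24, edgeR adjusted p = 0.0430) and without starved xylose B (-0.26, edgeR adjusted p = 0.0426).

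The transketolase gene tkl1 (PHBOTO_004433) stood apart in exponential xylose and varied little among the other groups. Its level was 1083, 1058 and 983 CPM in replicates A, B and C of exponential glucose. Exponential xylose held 1457, 1767 and 1588 CPM. The starved libraries held 1023, 1201 and 1103 CPM on glucose and 1184, 1294 and 1290 CPM on xylose. All 3 exponential xylose libraries were above the other 9, while starved glucose overlapped exponential glucose below it and starved xylose above it. In exponential growth tkl1 was 0.62 ± 0.09 higher on xylose, or 1.54-fold (edgeR adjusted p = 1.48e-04), from means of 1041 ± 52.0 CPM on glucose and 1604 ± 156 CPM on xylose (SD, n = 3 each). Starvation on xylose changed it by -0.35 ± 0.09 (edgeR adjusted p = 0.00268), to 1256 ± 62.8 CPM. On glucose the starvation change was 0.09 ± 0.09 (edgeR adjusted p = 0.382), with an approximate 95% interval of -0.13 to 0.31, and its sign turned with library totals alone (-0.0055).

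The transaldolase gene nqm1 (PHBOTO_004569) changed most among the 4 genes and was set apart by growth phase. Replicates A, B and C of exponential glucose held 1258, 1401 and 1235 CPM. Those of exponential xylose held 1399, 1478 and 1386 CPM. Starved glucose held 5390, 6462 and 4983 CPM, and starved xylose 5619, 5127 and 4902 CPM. Every starved library was more than 3-fold above every exponential library, and the sugars overlapped within each phase. On xylose nqm1 rose from 1421 ± 49.8 to 5216 ± 367 CPM (SD, n = 3 each), a change of 1.88 ± 0.11 or 3.67-fold (edgeR adjusted p = 9.21e-11). The starvation change on glucose was 2.11 ± 0.11 or 4.32-fold (edgeR adjusted p = 2.24e-11). These rises ranked 714 and 543 among 5805 loci ordered from the largest rise down. The sugar changed nqm1 by 0.13 ± 0.10 in growth (edgeR adjusted p = 0.412) and by -0.11 ± 0.10 in starvation (edgeR adjusted p = 0.439), xylose minus glucose. The approximate 95% intervals of those sugar differences were -0.11 to 0.37 and -0.34 to 0.13. Fitted on the exponential groups alone, the first was called (0.16, edgeR adjusted p = 0.0410), in a fit that called 2458 of 5733 loci in place of 1203 of 5805.

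**Figure D1:**
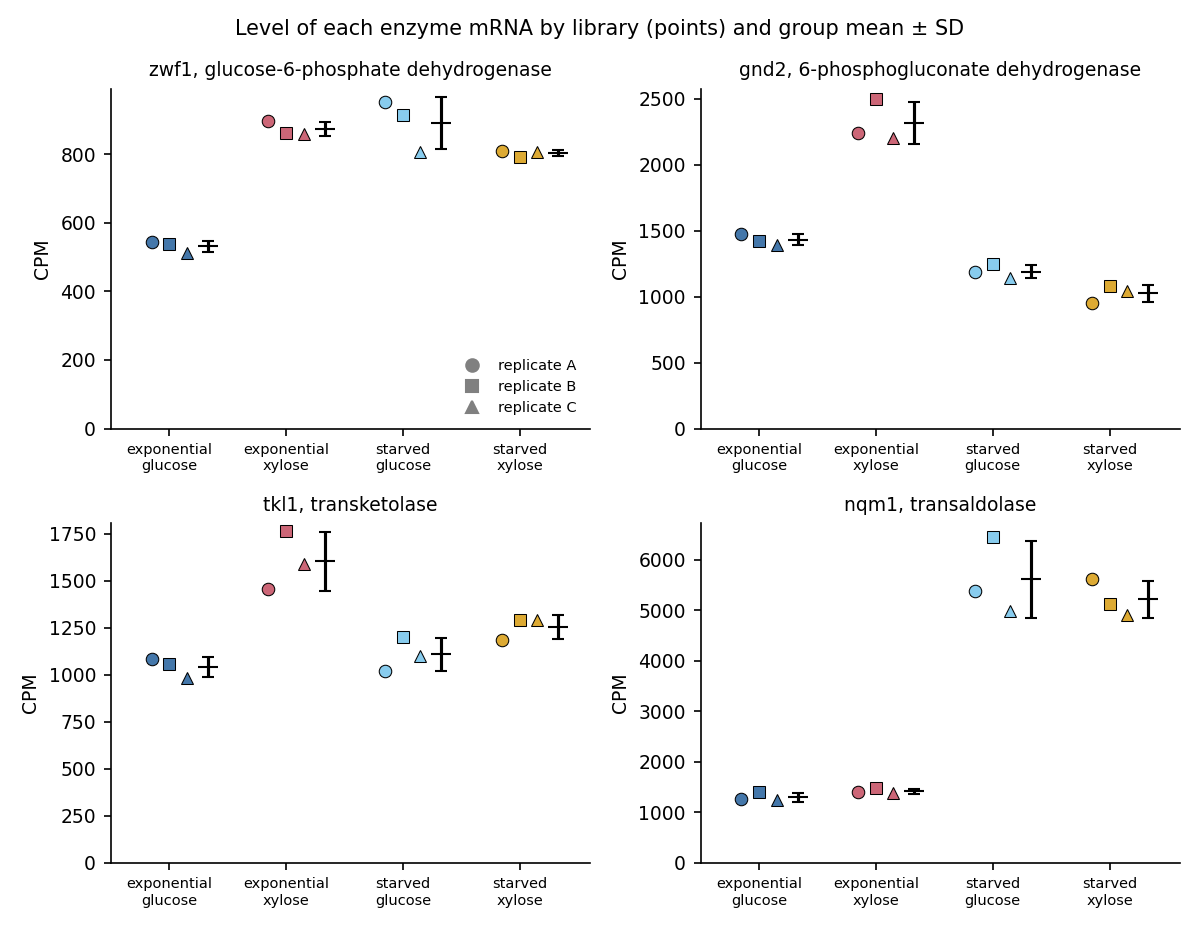
CPM (vertical axes from 0, 1 scale per gene) of zwf1, gnd2, tkl1 and nqm1 in the 4 groups; points are libraries (circle A, square B, triangle C) and bars the group mean ± SD of 3 libraries. Exponential glucose is the low group for zwf1 (512 to 543 CPM), exponential xylose the high group for gnd2 (2206 to 2499 CPM) and tkl1 (1457 to 1767 CPM), and both starved groups are high for nqm1 (4902 to 6462 CPM).

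Between the sugars in exponential growth, zwf1, gnd2 and tkl1 were called higher on xylose and nqm1 was not called. Of all loci tested, 9.94% were called higher and 10.8% lower on xylose in this comparison, so 3 of 4 is above the background share. The 3 changes lay between 0.62 and 0.72, while the median over all loci was -0.03. Between the sugars in starvation edgeR called 0 of the 4 genes. The background there was 23.0% called higher and 19.2% lower. At an unadjusted p under 0.05, 1 of the 4 (gnd2, lower on xylose) passed, and DESeq2 called 2 lower (zwf1 at -0.18 and gnd2 at -0.24). Without starved glucose C, edgeR also called zwf1 (-0.22, edgeR adjusted p = 0.0345), where the value over all libraries was -0.15 ± 0.08.

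Across starvation the 4 genes did not move as a unit. On glucose zwf1 and nqm1 rose, gnd2 fell and tkl1 was not called, against a background of 40.1% of loci called higher and 41.1% lower. On xylose nqm1 rose, gnd2 and tkl1 fell and zwf1 was not called, with a background of 40.6% higher and 40.6% lower. These member counts are near the background shares, so being called in starvation was common to most of the transcriptome. The starvation comparisons on the 2 sugars share no library, whereas each shares a group with both sugar comparisons.

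The starvation change differed between the sugars for zwf1, gnd2 and tkl1, each time lower on xylose. The difference, xylose minus glucose, was -0.87 ± 0.12 for zwf1 (edgeR interaction, adjusted p = 3.44e-05) and -0.91 ± 0.12 for gnd2 (edgeR interaction, adjusted p = 3.48e-05). For tkl1 it was -0.44 ± 0.13 (edgeR interaction, adjusted p = 0.0160). That call ended without exponential xylose B, the library with the highest tkl1 level, where the value was -0.37 (edgeR interaction, adjusted p = 0.0506). For nqm1 it was -0.24 ± 0.15, which was not called (edgeR interaction, adjusted p = 0.216). The approximate 95% interval of the nqm1 difference was -0.57 to 0.10, so a difference as large as that of tkl1 lay within it. Of all loci, 21.7% were called with a higher and 16.5% with a lower starvation change on xylose, against 3 of the 4 genes called lower. The interaction rests on all 4 groups, so the higher exponential xylose levels of zwf1, gnd2 and tkl1 enter it directly.

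**Figure D2:**
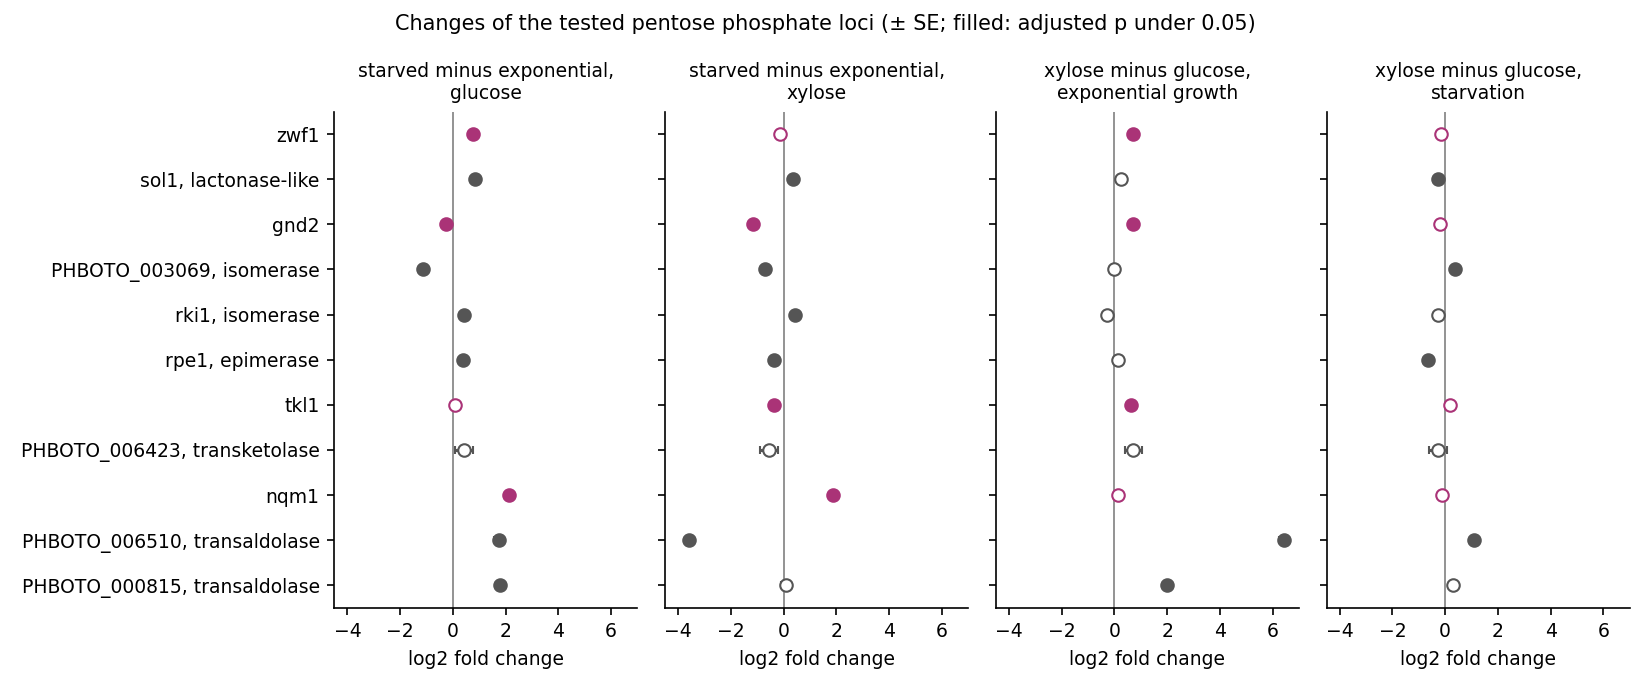
Log2 fold changes ± SE (horizontal axes, same scale in all panels) of the 11 tested pentose phosphate loci in 4 comparisons; zwf1, gnd2, tkl1 and nqm1 are in purple, other loci in grey, and filled points had an edgeR adjusted p under 0.05. The transaldolase PHBOTO_006510 stands furthest from 0, at 6.42 on xylose against glucose in growth and -3.58 in starvation on xylose.

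Ratios of counts within a library do not depend on how libraries are scaled. The log2 ratio of zwf1 to gnd2 was -1.43 ± 0.02 in exponential glucose and -1.41 ± 0.11 in exponential xylose (SD, n = 3 each). In starvation it was -0.42 ± 0.10 on glucose and -0.35 ± 0.11 on xylose. The starved mean was thus above the exponential mean by 1.01 on glucose and by 1.05 on xylose, and the sugars overlapped within each phase. The log2 ratio of gnd2 to tkl1 was 0.46 ± 0.04 in exponential glucose, 0.53 ± 0.08 in exponential xylose, 0.11 ± 0.09 in starved glucose and -0.29 ± 0.03 in starved xylose. Here the starved groups did not overlap the exponential groups or each other. For the log2 ratio of tkl1 to nqm1, starved minus exponential was -2.02 on glucose and -2.22 on xylose. All 6 of these starvation differences separated the replicates. Each gave the smallest p that 3 libraries against 3 allow (exact two-sided permutation test, p = 0.1, adjusted p = 0.15 over 24 ratio comparisons), so none could pass 0.05. Over all 6 pairs of the genes, 16 of the 24 comparisons gave that p. Among the starvation differences of the remaining pairs, zwf1 to tkl1 on xylose alone overlapped (0.23, exact two-sided permutation test, p = 0.2). Most loci were called in starvation, 40.1% higher and 41.1% lower on glucose and 40.6% each way on xylose. How often ratios of other loci separate was not tested. The ratios compare conditions only, since the genes' lengths were not used.

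**Figure D3:**
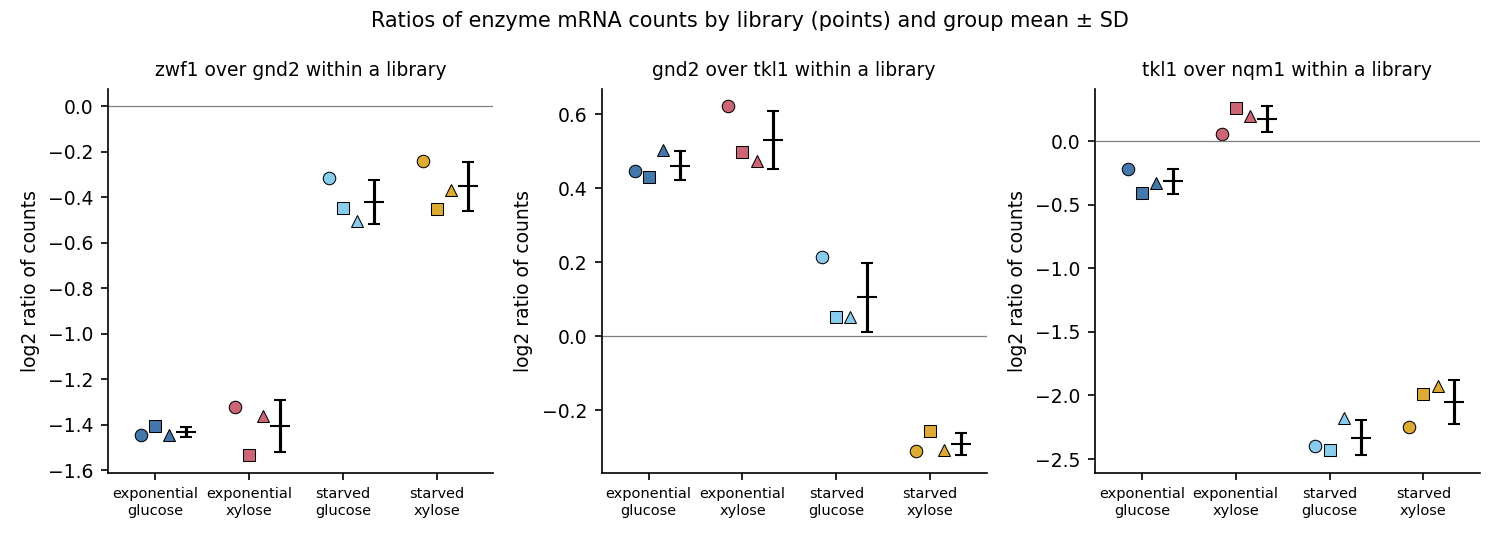
Log2 ratio of the counts of a pair of genes within each library (vertical axes, scales differ between panels); points are libraries (circle A, square B, triangle C) and bars the mean ± SD of 3. The zwf1 to gnd2 ratio is between -1.53 and -1.32 in the exponential libraries and between -0.50 and -0.24 in the starved libraries, while the gnd2 to tkl1 ratio also separates the starved sugars.

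The other loci of the pathway were taken from a list of names and products. It holds 12 loci with the 4 genes, of which 11 were tested; the phosphoketolase PHBOTO_003187 was not, with 7, 11, 0 and 13 counts in exponential glucose, exponential xylose, starved glucose and starved xylose. The counts and medians that follow are over the 11 and so include the 4 genes again. Over the 11, edgeR called 7 higher and 2 lower in starvation on glucose (median 0.43, all loci -0.02), beside 40.1% and 41.1% of all loci. In starvation on xylose it called 3 higher and 5 lower (median -0.35, all loci 0.00), beside 40.6% and 40.6%, so that count is near the background. In exponential growth 5 were called higher on xylose, and edgeR called 0 lower, with 1 lower at an unadjusted p under 0.05 and 0 lower in DESeq2 (median 0.62, all loci -0.03), beside 9.94% higher and 10.8% lower of all loci. Those 5 were zwf1, gnd2 and tkl1 with the transaldolases PHBOTO_006510 and PHBOTO_000815, and the median is the value of tkl1. In starvation 2 were higher and 2 lower on xylose (median -0.15, all loci 0.00), beside 23.0% and 19.2%. The starvation change was lower on xylose for 7 loci, zwf1, gnd2 and tkl1 among them, and higher for 1 (median -0.76, all loci 0.03), beside 16.5% lower and 21.7% higher of all loci. The 1 higher locus, the isomerase PHBOTO_003069, was called without exponential glucose A, exponential xylose B, starved glucose C or starved xylose A, and lost its call without any other single library. The 2 lower between the starved sugars became 5 without starved glucose C and 1 without starved glucose A, starved glucose B or starved xylose C. Without starved glucose C, 2752 of 5837 loci were called in either direction, in place of 2446 of 5805. Fitted on the exponential groups alone, 9 loci were called higher on xylose in growth. That fit called more of all loci as well, 2458 of 5733 in either direction in place of 1203 of 5805.

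The gene sol1 (PHBOTO_004064) is annotated as 6-phosphogluconolactonase-like, after the enzyme that acts between those of zwf1 and gnd2. In Saccharomyces cerevisiae the lactonase activity is assigned to relatives of Sol1, which is known for a role in tRNA handling. Its mean was 328 ± 12.9 CPM in exponential glucose, 389 ± 13.7 in exponential xylose, 592 ± 74.4 in starved glucose and 496 ± 21.1 in starved xylose (SD, n = 3 each). Like zwf1 it rose in starvation on glucose (0.85 ± 0.09, edgeR adjusted p = 2.60e-07), and it also rose on xylose (0.35 ± 0.09, edgeR adjusted p = 0.00214). The difference of its starvation changes, xylose minus glucose, was -0.50 ± 0.13 (edgeR adjusted p = 0.00636). 

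In the non-oxidative branch the epimerase gene rpe1 (PHBOTO_005416) interconverts ribulose and xylulose 5-phosphates. It was 158 ± 7.44 CPM in exponential glucose, 172 ± 2.45 in exponential xylose, 206 ± 34.7 in starved glucose and 133 ± 11.3 in starved xylose (SD, n = 3 each). It rose in starvation on glucose (0.38 ± 0.11, edgeR adjusted p = 0.00328) and fell on xylose (-0.38 ± 0.11, edgeR adjusted p = 0.00361). Of the 2 loci annotated as ribose 5-phosphate isomerase, which links ribulose and ribose 5-phosphates, rki1 rose in starvation on both sugars (0.42 ± 0.13 on glucose and 0.44 ± 0.13 on xylose, edgeR adjusted p = 0.00872 and 0.00643). The other, PHBOTO_003069, fell on both (-1.12 ± 0.10 on glucose and -0.73 ± 0.10 on xylose, edgeR adjusted p = 3.56e-08 and 5.77e-06). The isomerase loci thus moved in opposite directions in both starvation comparisons. The further transketolase PHBOTO_006423 stayed between 1.80 and 2.98 CPM on average in the 4 groups and was called in none of the comparisons. Reads that match more than 1 locus could be split between tkl1 and PHBOTO_006423, and between the transaldolases, in a way the sources used here do not give.

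The 3 loci annotated as transaldolase were high in different groups. PHBOTO_006510 held 14.0, 14.3 and 13.5 CPM in replicates A, B and C of exponential glucose, and 1241, 1255 and 1093 CPM in exponential xylose. It held 30.7, 52.6 and 56.4 CPM in starved glucose and 93.9, 106 and 100 CPM in starved xylose. The 4 groups did not overlap. It was 85.7-fold higher on xylose in growth (6.42 ± 0.19, edgeR adjusted p = 4.92e-13), where nqm1 was not called, and in starvation on xylose it fell by 3.58 ± 0.17 (edgeR adjusted p = 7.01e-12), while nqm1 rose. In starvation on glucose both rose, PHBOTO_006510 by 1.74 ± 0.17 (edgeR adjusted p = 5.84e-08). The weak PHBOTO_000815 stood at 4.36 ± 0.535 CPM in exponential glucose and between 15.2 and 18.6 CPM on average in the other groups (n = 3 each), so exponential glucose was its lowest group, as for zwf1. It was 2.01 ± 0.17 higher on xylose in growth (edgeR adjusted p = 2.09e-07) and rose by 1.79 ± 0.17 in starvation on glucose (edgeR adjusted p = 6.03e-08).

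**Figure D4:**
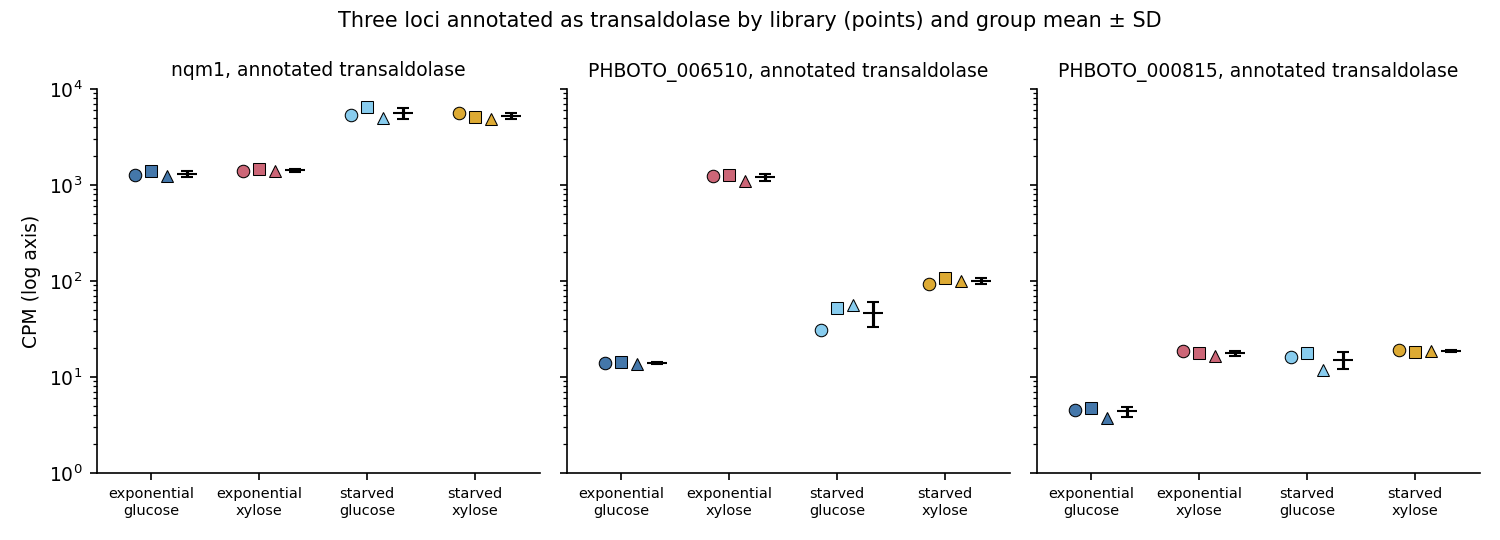
CPM (log axis) of the loci annotated as transaldolase in the 4 groups; points are libraries (circle A, square B, triangle C) and bars the mean ± SD of 3. Starved libraries are high for nqm1 (4902 to 6462 CPM), exponential xylose is high for PHBOTO_006510 (1093 to 1255 CPM), and exponential glucose is low for PHBOTO_000815 (3.75 to 4.76 CPM).

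The 4 genes together took 0.454 ± 0.016% of a library's counts in exponential glucose, 0.655 ± 0.032% in exponential xylose, 0.871 ± 0.099% in starved glucose and 0.755 ± 0.027% in starved xylose (SD, n = 3 each). The sum mixes genes that moved apart. In starvation mean nqm1 rose from 1298 to 5612 CPM on glucose and from 1421 to 5216 CPM on xylose. Meanwhile gnd2 fell on both sugars and tkl1 fell on xylose, so the higher starved share is not a rise of the 4 genes as a unit. The 10 highest loci of any kind took 5.72 to 6.80% of the counts in exponential and 10.3 to 12.0% in starved libraries, and their part in the scaled levels was not tested beyond the other scalings given with the results.

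Lists of enzymes at the borders of the pathway were counted beside it. On the side where xylose enters, 4 of 7 loci were called higher on xylose in growth, beside 9.94% of all loci. The xylulose kinase xks1, which makes the pentose phosphate that transketolase uses, was 4.52 ± 0.17 higher there (edgeR adjusted p = 1.34e-11). In starvation on xylose 4 of the 7 fell and 3 rose, near the 40.6% of all loci in each direction, with the xylose reductase xr1 at -3.52 ± 0.14 (edgeR adjusted p = 1.27e-12). The gene xr1 also fell in starvation on glucose (-2.44 ± 0.13, edgeR adjusted p = 5.57e-11). It was not called between the sugars in growth (0.35 ± 0.13, edgeR adjusted p = 0.0614). The locus with the highest CPM of that list, xyl2, had a starvation change higher on xylose by 0.77 ± 0.12 (edgeR interaction, adjusted p = 2.07e-04), where 4 of the 7 were called lower. At the hexose phosphate branch point, the glucose-6-phosphate isomerase gene pgi1 and zwf1 encode enzymes that both act on glucose 6-phosphate. The gene pgi1 was 1.12 ± 0.11 higher on xylose in growth (edgeR adjusted p = 2.38e-06). Of the 7 loci there, 3 were called higher and 2 lower in that comparison, beside 9.94% and 10.8% of all loci, and the lower were fbp1 (-0.98 ± 0.16, edgeR adjusted p = 0.000329) and the glucokinase glk1 (-0.56 ± 0.09, edgeR adjusted p = 0.000165). The gene fbp1 encodes fructose-1,6-bisphosphatase, which returns triose carbon to hexose phosphate, and rose by 4.36 ± 0.18 in starvation on xylose (edgeR adjusted p = 2.23e-12) and by 2.78 ± 0.17 on glucose (edgeR adjusted p = 2.22e-10).

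Among 4 loci for NADPH supply by other routes, mae1 had the largest called change in starvation on xylose. It is annotated as a mitochondrial NAD-dependent malic enzyme, so whether it makes NADPH is not given by its annotation. It rose there by 3.44 ± 0.22 (edgeR adjusted p = 3.87e-10), from 120 ± 24.6 to 1299 ± 88.2 CPM, while gnd2 fell and zwf1 was not called. On glucose mae1 changed by 0.08 ± 0.20 (edgeR adjusted p = 0.718), from 521 ± 71.3 to 551 ± 193 CPM (SD, n = 3 each). The rise on xylose began from a low level: in growth mae1 was lower on xylose than on glucose (-2.12 ± 0.21, edgeR adjusted p = 1.59e-06). Between the starved sugars it was 1.24 ± 0.20 higher on xylose (edgeR adjusted p = 2.02e-04). The mitochondrial NADP isocitrate dehydrogenase idp1 fell on both sugars (-1.93 ± 0.10 on glucose and -1.60 ± 0.10 on xylose, edgeR adjusted p = 4.93e-11 and 4.42e-10). Of the outlets that draw ribose 5-phosphate or erythrose 4-phosphate, all 5 tested loci fell in starvation on each sugar, beside 41.1% of all loci lower on glucose and 40.6% on xylose, for instance aro3, the first enzyme of aromatic amino acid synthesis (-2.84 ± 0.08 on glucose, edgeR adjusted p = 1.44e-14). The ribose-phosphate pyrophosphokinase prs1 fell by 1.74 ± 0.09 on glucose and by 1.45 ± 0.08 on xylose (edgeR adjusted p = 1.42e-11 and 1.22e-10). The ribokinase rbk1 had 0 counts in all libraries.

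Named loci whose levels ran most like those of each gene were found by Pearson's r of log2 CPM over the 12 libraries, as a description. The 3 libraries of a group share sugar and phase, so the 12 points are not independent. For zwf1 these were the dihydroxyacetone kinase dak2 (r = 0.928), the aldehyde reductase ari1_2 (r = 0.928), annotated as NADPH-dependent, and the peroxiredoxin ahp1 (r = 0.921). For gnd2 they were the glycogen synthase gsy1 (r = 0.985), the GDP-mannose transporter vrg4 (r = 0.979) and the thiamine thiazole synthase thi4 (r = 0.975). For tkl1 they were reg1 (r = 0.942), the inositol-3-phosphate synthase ino1 (r = 0.930) and xks1 (r = 0.916). For nqm1 they were fmo1_2 (r = 0.996), izh3 (r = 0.996) and elc1 (r = 0.995). Likeness of pattern was not likeness of size. The starvation change on glucose was 4.17 for ari1_2 and 0.75 for zwf1, and xks1 fell by 2.37 in starvation on xylose where tkl1 fell by 0.35.

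The locus numbers of the 4 genes were not adjacent. Among the annotated loci next to each in number, PHBOTO_002685, annotated as a sterol regulatory element-binding protein cleavage-activating protein, follows gnd2 and was singled out after its values were seen. It was 0.51 ± 0.11 higher on xylose in growth (edgeR adjusted p = 0.00243), and fell by 0.37 ± 0.11 in starvation on glucose and by 1.15 ± 0.11 on xylose (edgeR adjusted p = 0.00538 and 6.21e-08). Of the other loci beside gnd2, rfa2 had a starvation change that was higher on xylose by 0.70 ± 0.11 (edgeR interaction, adjusted p = 1.66e-04). PHBOTO_002686 had the sign of gnd2 except in starvation on glucose (0.24 ± 0.11, edgeR adjusted p = 0.0613, not called). It fell in starvation on xylose (-0.39 ± 0.11, edgeR adjusted p = 0.00444), with an interaction of -0.63 ± 0.16 (edgeR interaction, adjusted p = 0.00571). Xylose minus glucose, it was -0.32 ± 0.11 in starvation (edgeR adjusted p = 0.0316) and 0.31 ± 0.11 in growth, the latter not called (edgeR adjusted p = 0.064). Of the loci beside zwf1, rad4 rose in starvation on both sugars (1.09 ± 0.08 on glucose and 0.88 ± 0.08 on xylose, edgeR adjusted p = 1.32e-09 and 2.08e-08) and tra1 was called in none of the comparisons. Beside nqm1, the loci cpr6_2, sat4 and PHBOTO_004571 were called higher in starvation on both sugars, as nqm1 was. Their changes were 1.43, 0.29 and 2.92 on glucose and 0.72, 0.85 and 1.77 on xylose. The background was 40.1% of loci called higher on glucose and 40.6% on xylose, and PHBOTO_004572 was not tested. Beside tkl1, mil1 was called higher on both sugars and PHBOTO_004435 lower on both. Whether neighbouring loci share reads or a contig was not tested.

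The authors' deposited table gives DESeq2 values for the same comparisons. For zwf1 the authors' deposited table lists 0.76 in starvation on glucose and 0.71 for xylose against glucose in growth. For gnd2 the authors' deposited table lists -1.18 in starvation on xylose and -0.24 for the starved sugars, with an adjusted p of 0.00449 for the latter in DESeq2. The sign of every change of the 4 genes in the authors' deposited table was that found by edgeR, and the calls differed for the starved sugars, where the authors' deposited table has zwf1 (adjusted p = 0.0269 in DESeq2) and gnd2 under 0.05.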

How the data were processed

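Poly-A selected RNA of 12 libraries was measured. Per the file headers, the deposited table holds raw read counts per locus, and all were whole numbers. The deposited normalized counts, a signal, are the counts over a library's size factor and served only to check this. The log2 fold changes and the p-values (adjusted) in the table are the authors', made with DESeq2 per the submitters' processing notes. Those notes also name bcl2fastq 2.20.0.422, CASAVA, Trim Galore 0.6.1, cutadapt 2.3 and HISAT2 2.2.1. For the read counter, strand setting, genome build and annotation: not given in the sources used here. Libraries were made with a stranded kit per the labels. Of the per-sample columns, 0 were left unused.

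Counts of the 12 libraries entered edgeR 4.0.16 under R 4.3.3, each group having its own coefficient. The steps were filterByExpr (minimum count 10, minimum total 15), TMM scaling, glmQLFit and glmQLFTest, with 8 residual degrees of freedom and Benjamini-Hochberg adjustment over the 5805 loci tested. The SE, an approximation, is the size of a change over the root of its F value, and approximate 95% intervals use it with 8 degrees of freedom. The test was checked on simulated counts. Ratios were compared by exact permutation tests (SciPy 1.17.1). Log2 CPM for the likeness search used a prior count of 2. Alternatives were other scalings, no filter, DESeq2 1.42.0, replicate blocks, fits of 2 groups and leaving out each library.

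Named were the 4 genes, the tested pathway loci, and from each border list loci with the largest called change or highest CPM. Only part of these and of the neighbours is printed. The border loci glk1 and rbk1 are named outside that rule. The members and lists were chosen with earlier results of these data known.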

Additional observations from a re-analysis of the deposited data

Results flagged for a closer look

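The starvation change differed between the sugars, by edgeR's interaction test, for 3 of the 4 genes and 5 other loci of the pathway, beside 21.7% of all loci with a higher and 16.5% with a lower change on xylose. The difference, xylose minus glucose on the log2 scale, was -0.87 for zwf1, -0.91 for gnd2 and -0.44 for tkl1. Among the other loci it was -5.32 for the transaldolase PHBOTO_006510, -1.72 for the transaldolase PHBOTO_000815, -0.76 for the epimerase rpe1 and -0.50 for sol1. The isomerase PHBOTO_003069 was the exception in sign, at 0.40. For zwf1, gnd2, tkl1, PHBOTO_006510 and PHBOTO_000815 the exponential groups stood further apart than the starved groups. For rpe1 and PHBOTO_003069 the starved groups stood further apart.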

How the results depend on the processing

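Of 368 alternative values for the 20 changes of the 4 genes, 356 kept direction and call. With library totals alone, 3 further calls appeared, zwf1 in starvation on xylose (-0.34), zwf1 between the starved sugars (-0.27) and gnd2 between the starved sugars (-0.33), and tkl1 in starvation on glucose turned to -0.0055, uncalled. That scaling moved the median of all loci to -0.12 in starvation on glucose, -0.21 on xylose and -0.12 between the starved sugars. Between the starved sugars DESeq2 called zwf1 (-0.18) and gnd2 (-0.24), and DESeq2 size factors in edgeR called gnd2 (-0.24). Fitted on the 2 groups alone, nqm1 was called higher on xylose in growth (0.16). Leaving out 1 library gave -0.22 to -0.10 for zwf1 and -0.26 to -0.19 for gnd2 between the starved sugars, and -0.51 to -0.37 for the tkl1 interaction. The cause was not tested.

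Counts over the pathway list moved in 23 of 184 cases. With library totals alone, 1 was higher in starvation on xylose, 1 was higher and 5 were lower between the starved sugars, and 0 had a higher starvation change on xylose, as with DESeq2 size factors. Fitted on 2 groups, 9 were higher and 1 lower on xylose in growth, and 1 lower between the starved sugars. DESeq2 called 4 lower between the starved sugars. Over all loci, fits on 2 groups called 2458 in place of 1203 between the sugars in growth and 1613 in place of 2446 in starvation, and without exponential glucose B 791 were called in growth. Leaving out 1 library gave 0 to 1 lower in growth, 1 to 5 lower between the starved sugars and 0 to 1 with a higher starvation change on xylose. The ratio changes kept their sign when 1 library was left out, a check added after seeing the data (0.96 to 1.05 for zwf1 to gnd2 on glucose and 0.99 to 1.10 on xylose).

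Whether a replicate letter pairs libraries is not given by the labels. Deviations of libraries with the same letter correlated at -0.12 to 0.17, and most correlated better with another letter. The value for another letter was the larger of 2, so this check cannot decide whether letters pair libraries. With the letter as replicate block, zwf1 in starvation on glucose was 0.74, no call of the 4 genes changed, and 1 pathway locus in place of 2 was lower between the starved sugars. The replicate block by culture changed no call of the 4 genes. Each of the 4 genes had at least 10507 counts per library, so the spread between replicates, and not depth, limits these values; PHBOTO_006423 and PHBOTO_000815 are the weak exceptions.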
